A study of Rattus norvegicus with 6 samples.

Results

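The 7 transcripts described here carry the names of genes that work at the centrosome or on microtubules, namely Akap9, Cep63, Tubgcp3, Haus7, Clasp1, Pafah1b1 and Atat1. They are 7 of the 31715 transcripts counted in basilar artery smooth muscle cells (BASMCs) of rats, and 7 of the 24253 that had at least 1 count after rounding and could be tested. They were chosen from the contrast of both diets, because their unadjusted p was under 0.05 in the exact test of edgeR on unrounded counts, and because of what the genes do. In that exact test the unadjusted p was lowest for Atat1, at p = 0.00147, and it was closest to the threshold for Clasp1, at p = 0.0463. Levels, sums and shares of these transcripts are therefore a description of the 6 libraries. The p values printed for them come from the contrast that chose them and support nothing.

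The cells came from male Spraque-Dawley rats, 6 weeks old when purchased and weighing 180 to 200 g. The control group (n = 3) ate normal chow, and the high-salt diet group (n = 3) ate the same chow with 4% NaCl added by weight for 4 weeks. Each library came from a single rat. The endothelium was removed with wires before poly A RNA was taken, and the muscle cells that remained were used without a described sort. Markers of smooth muscle and of other cell types were not checked, since the rows of the counts table are transcripts without gene names.

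Depth ran from 12896098 counts in control replicate 1 to 24718338 in control replicate 2, with 23198636 in control replicate 3. The high-salt libraries held 16159272, 19522923 and 20589033 counts in replicates 1, 2 and 3. Levels are given as CPM, the estimated counts brought to a common library size with edgeR's trimmed means of M values (TMM). A level of 3 counts was taken as the floor of a library, which ran from 0.119 CPM for control replicate 2 up to 0.254 CPM for control replicate 1. Floors and intervals cover counting error only. Transcript lengths were not used, so levels are compared between groups and not between genes.

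Control replicate 1 and high-salt replicate 1 were closer to each other than to the other 4 libraries. Across 21808 transcripts, which are not independent of each other, their log2(CPM + 1) values correlated with r = 0.951. The 8 comparisons of a replicate 1 library with a library of another number gave r of 0.827 to 0.904, and the 6 comparisons among the other 4 libraries gave 0.900 to 0.953. High-salt replicate 2 was also set off, with r of 0.900, 0.900 and 0.905 to control replicates 2 and 3 and high-salt replicate 3, which correlated with each other at 0.948 to 0.953. Sums and differences are also given without both replicate 1 libraries, a choice made after the data were seen, and the sums also without high-salt replicate 2.

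Microtubules are hollow polymers of tubulin that grow mainly from ring complexes of gamma-tubulin, held at the centrosome, at the Golgi apparatus or on the side of existing microtubules. Proteins at their ends, motors and chemical marks on tubulin then set how long they last and what they carry. In smooth muscle they serve as tracks for channels and vesicles, and their breakdown is known to raise contractile tone.

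Kallisto, which made the counts, splits a read between all transcripts it is compatible with. The estimated counts of transcripts that share reads are then fractions that sum to a whole number. For each transcript of interest, the shortest run of adjacent rows with a whole sum in all 6 libraries, within 0.05, was taken as its read-sharing set. The summed level of a set does not depend on how reads were divided inside it, whereas the share of 1 transcript does. A gene name below stands for its 1 transcript row and not for the whole gene. The genes of the other rows of a set were not identified, and these rows may be further transcripts of the same gene. Such runs were found within 10 rows for 5 of the 7 transcripts. Atat1 needed a run of 15 rows. For Clasp1 no run of up to 20 rows closed, and a window of 7 rows around it stands in its place.

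In the high-salt diet group, the mean level was higher for 3 of the 7 transcripts (Cep63, Tubgcp3 and Clasp1) and lower for 4 (Akap9, Haus7, Pafah1b1 and Atat1). On rounded counts, 5 of the 7 were called at an unadjusted p under 0.05 and 2-fold in the exact test of edgeR, against 297 of all 24253 transcripts (1.22%). The other two had an unadjusted p of 0.0733 (Clasp1) and 0.0528 (Pafah1b1) in the exact test. The calls changed when 1 library was left out, for all of the 5 but Atat1, and these fits repeat the choice on part of the same libraries, so neither a kept nor a lost call is read as support. In the exact test without 1 library, Tubgcp3 was called only without high-salt replicate 3 and had an unadjusted p of 0.0930 to 0.115 in the other 5 fits. Cep63 was called only without high-salt replicate 1 or 2, with 0.0999 to 0.80 in the other 4 fits of the exact test. Haus7 was called only without control replicate 2 or high-salt replicate 1, with 0.0681 to 0.246 in the other 4 fits of the exact test, and Akap9 was called in 2 of the 6. Calls were also gained, for Clasp1 without high-salt replicate 1 and for Pafah1b1 without control replicate 1, with an unadjusted p of 0.0158 and 0.0187 in the exact test. With both replicate 1 libraries left out, the exact test gave an unadjusted p of 0.0630 for Akap9, 0.0523 for Cep63, 0.230 for Tubgcp3 and 0.0539 for Haus7, and these 4 of the 5 were not called, while it was 0.0205 for Atat1. The fitted log2 fold changes in that fit were not smaller for 3 of these 4, at 9.84 for Cep63, 8.02 for Tubgcp3 and -8.39 for Haus7, which depend on the prior count, and for Akap9 the value was -2.24. Of all 22679 transcripts tested in that fit, 392 were called. After adjustment over all transcripts tested, the exact test gave an adjusted p of 1 for all 7. In 3 of the 7 the groups were without overlap, against 5.50% of all transcripts tested. One group was without a rounded count for 5 of the 7, against 11.8% of all tested. Since the same contrast chose the 7 transcripts, nothing is read from these shares. Akap9 was the 1 transcript of the 7 with counts in all 6 libraries. The low-count filter of edgeR kept 2 of the 7, Akap9 and Atat1, and a transcript with counts in a single group can pass that filter through this group alone.

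**Figure D1:**
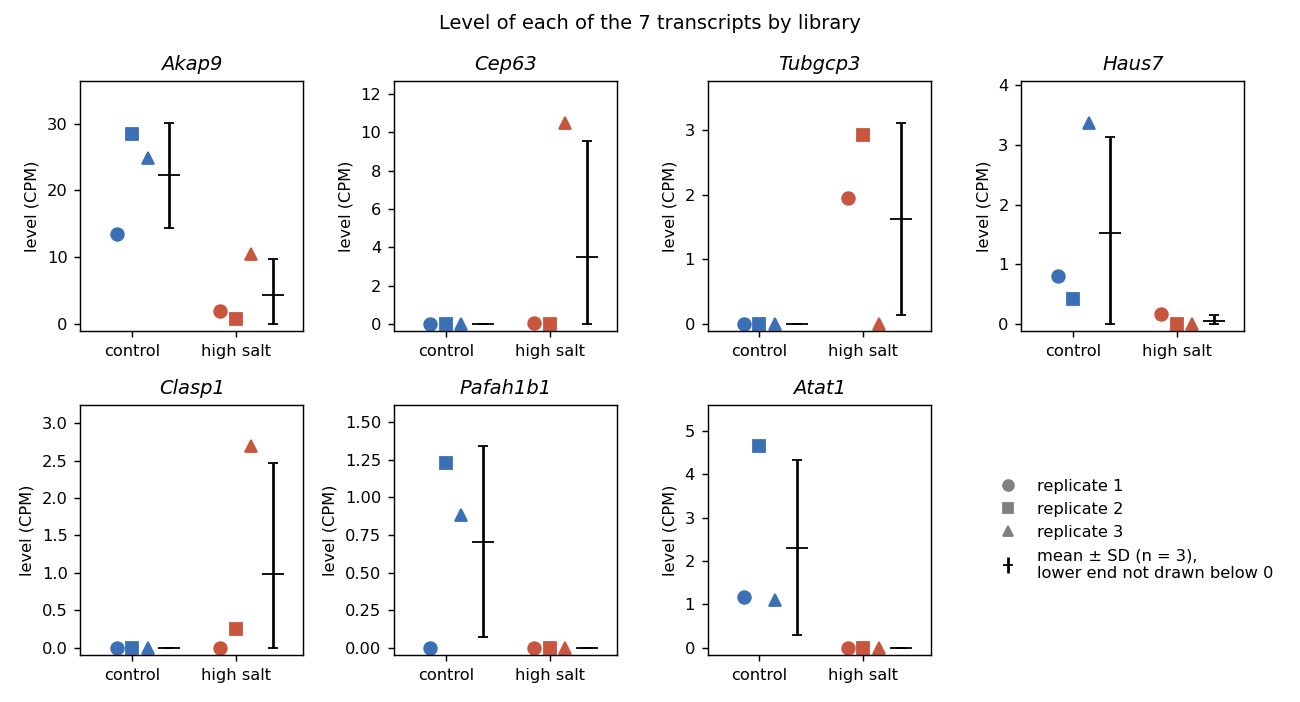
Level (CPM) of each of the 7 transcripts in each library, with control libraries in blue, high-salt libraries in red and a marker shape for each replicate number. Black bars are the mean ± SD (n = 3), with the lower end stopped at 0, and in 5 panels 1 group lies at 0 after rounding, while Akap9 has 13.4 to 28.4 CPM in the control group and 0.712 to 10.5 CPM in the high-salt diet group.

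Akap9 is a very large scaffold protein that anchors protein kinase A and gamma-tubulin complexes at the centrosome and the Golgi, and its short form, yotiao, ties kinases to a potassium channel. The transcript ENSRNOT00000010118.6 had 158, 717 and 565 counts in control replicates 1, 2 and 3, and 34.5, 13.5 and 216 in the high-salt replicates. These counts correspond to 13.4, 28.4 and 24.9 CPM and to 1.89, 0.712 and 10.5 CPM. Every control library lay above every high-salt library, with control replicate 1 and high-salt replicate 3 nearest to each other. The control mean was 22.2 ± 7.87 CPM and the high-salt mean 4.37 ± 5.35 CPM (SD, n = 3 each), a ratio of 5.09. The size of the difference was uneven among same-numbered rats, with the control library 7.09 times, 39.9 times and 2.37 times as high in replicates 1, 2 and 3. The labels number the rats but state no pairing between the groups. In bulk RNA, fewer cells of a type and less RNA per cell cannot be told apart, for Akap9 and for the transcripts that follow.

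The log2 fold change of Akap9 was -2.34 in the exact test of edgeR. High-salt replicate 3 held most of what was counted in its group, and without it the value was -4.09. With any other library left out it was between -2.61 and -1.84, and the unadjusted p of the exact test was above 0.05 in 4 of these 5 fits, from 0.0564 without high-salt replicate 2 to 0.0949 without high-salt replicate 1. A quasi-likelihood fit of edgeR that blocked on the replicate number gave -3.04 with an adjusted p of 0.992, and the adjusted p lay between 0.188, without high-salt replicate 3, and 1 over all settings.

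Akap9 shared its reads with 1 other row, ENSRNOT00000090751.1. This partner was at 61.5, 21.5 and 33.4 CPM in the control libraries and at 24.6, 44.1 and 33.6 CPM in the high-salt libraries. Its levels overlapped, and its highest and its lowest value were both in the control group. The share of Akap9 in the set was 17.9%, 56.9% and 42.7% in the control libraries, against 7.13%, 1.59% and 23.9% in the high-salt libraries. Across the groups the shares overlapped, because high-salt replicate 3 lay above control replicate 1. Each high-salt library had a lower share than the control library of the same number, but the labels do not pair them. In replicates 2, Akap9 was the larger part of the set in the control library and nearly none of it in the high-salt library.

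Summed over both rows, the set was at 74.9, 49.9 and 58.3 CPM in the control libraries and at 26.5, 44.8 and 44.1 CPM in the high-salt libraries. The groups did not overlap on the sum either, although control replicate 2 and high-salt replicate 2 were close. Akap9 was the 1 of the 5 transcripts with a set of up to 10 rows for which this held. Among all 2567 such sets with at least 10 counts in each library, 5.41% had sums without overlap, and nothing is read from this. The means were 61.0 ± 12.7 and 38.5 ± 10.4 CPM (SD, n = 3). On the log2(CPM + 1) scale the sum differed by -0.67, against -2.53 for Akap9 itself. Replicates 1 contributed most, with -1.47, against -0.15 in replicates 2 and -0.40 in replicates 3, and without high-salt replicate 1 alone the sum differed by -0.43. Without both replicate 1 libraries the difference was -0.27 for the sum and -2.64 for Akap9, and the partner stood 0.51 higher in the high-salt diet group. With all libraries the partner differed by -0.092. In a window of 7 rows around Akap9, which holds rows outside its set, the summed difference was -0.10.

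Cep63 is a centriolar protein that works with Cep152 in the duplication of centrioles. ENSRNOT00000056531.4 had 0 counts in each control library and 1.04, 0 and 215 counts in high-salt replicates 1, 2 and 3. At 10.5 CPM, high-salt replicate 3 held 99.5% of the level in its group. The groups overlapped, since high-salt replicate 2 had no count, and a mean of 3.52 ± 6.04 CPM (SD, n = 3) describes 1 rat. Against the floor of 3 counts per library, averaged over the control group, this mean was at least 20.9-fold higher. High-salt replicate 3 alone sets this bound. The fitted log2 fold change of 9.11 in the exact test of edgeR depends on the prior count, and without high-salt replicate 3 it was 2.38.

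In high-salt replicate 3, which held nearly all counts of this Cep63 transcript, the main row of its set was at its lowest. In high-salt replicate 1, with 1.04 counts of the Cep63 transcript, the main row was at its highest. ENSRNOT00000031313.6 was at 29.1, 22.8 and 25.9 CPM in the control libraries and at 35.8, 18.2 and 13.6 CPM in the high-salt libraries. The third row, ENSRNOT00000084413.1, reached 8.95 CPM in high-salt replicate 2 and lay between 0 and 2.94 CPM in the other 5 libraries. In high-salt replicate 3 the 3 rows thus held 40.9% (Cep63), 53.1% and 5.99% of the set, and in high-salt replicate 2 the third row held 32.9%. The sum of the set was 31.1, 22.8 and 28.8 CPM in the control libraries and 37.9, 27.2 and 25.7 CPM in the high-salt libraries. These sums overlapped widely and differed by 0.12 on the log2(CPM + 1) scale. The sign of this small difference turned to -0.0066 without control replicate 2, to -0.049 without high-salt replicate 1 and to -0.068 when a window of 7 rows replaced the set, and without high-salt replicate 3 it was 0.22.

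Tubgcp3 is a core subunit of the gamma-tubulin ring complex, from which new microtubules grow. ENSRNOT00000068416.1 had 35.7, 55.5 and 0 counts in high-salt replicates 1, 2 and 3, or 1.96, 2.92 and 0 CPM, and it had no rounded count in any control library. The high-salt libraries were thus split, with replicate 3 at the control level. The group mean of 1.63 ± 1.49 CPM (SD, n = 3) was at least 9.66-fold higher than the floor of the control group. This bound is lower without high-salt replicate 2, which leaves 1.96 and 0 CPM. Tubgcp3 held 7.20%, 9.46% and 0% of the counts of its set, which has ENSRNOT00000089329.1 as the other row, in the high-salt libraries.

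The partner row of Tubgcp3 carried the bulk of the set. It was at 17.5, 24.2 and 29.5 CPM in the control libraries and at 25.2, 28.0 and 33.3 CPM in the high-salt libraries. With Tubgcp3 added, the sums in the high-salt libraries were 27.2, 30.9 and 33.3 CPM. The groups overlapped. Control replicate 3, at 29.5 CPM, lay above high-salt replicate 1, at 27.2 CPM. Between libraries of the same number, which the labels do not pair, the sum differed by 0.60, 0.34 and 0.17 on the log2(CPM + 1) scale for replicates 1, 2 and 3. The mean difference was 0.37, 0.26 without both replicate 1 libraries and 0.18 without control replicate 1 alone. In a window of 7 rows it was -0.026.

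Haus7 is a subunit of augmin, the complex that starts new microtubules on the side of old ones, mainly in the spindle. ENSRNOT00000080691.1 had 9.49, 10.6 and 76.6 counts in control replicates 1, 2 and 3, and 2.97, 0 and 0 in the high-salt replicates. These were 0.804, 0.419 and 3.37 CPM against 0.163, 0 and 0 CPM. The groups did not overlap, but 73.4% of the control level came from replicate 3. The control mean was 1.53 ± 1.61 CPM and the high-salt mean 0.0542 ± 0.0939 CPM (SD, n = 3 each), the latter from 3 rounded counts in all. Each high-salt value lay below the floor of its library. The ratio of the pooled rounded counts, 97 against 3, scaled to the library sizes of both groups, was 31.3, with a 95% exact interval from 10.4 to 154 that covers counting error only and not the spread between rats. The fitted log2 fold change of -4.67 in the exact test of edgeR moved to -3.31 without control replicate 3 and to -7.94 without high-salt replicate 1.

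The row that shares reads with Haus7, ENSRNOT00000090596.1, was far above it in counts. Haus7 held 1.94%, 3.37% and 18.1% of the set in the control libraries, and under high salt 0.723%, 0% and 0%. These shares did not overlap. Of the 5 transcripts with a set of up to 10 rows, Haus7 was the 1 without overlap in its share, and the shares of the other 4 overlapped. Among all 6048 rows with such a set and at least 10 counts of the set in each library, 6.02% had shares without overlap, and nothing is read from this. The sum of both rows was 41.5, 12.4 and 18.7 CPM in the control libraries and 22.5, 14.2 and 14.0 CPM in the high-salt libraries. Control replicate 1 was highest and control replicate 2 lowest, so the sums overlapped. They differed by -0.36 on the log2(CPM + 1) scale, by 0.10 without control replicate 1, by -0.73 without control replicate 2, by -0.57 without high-salt replicate 1 and by -0.11 without both replicate 1 libraries. In a window of 7 rows around Haus7 the sums differed by -0.12. Its share differed by -0.301 percentage points in that window, against -7.55 in the set.

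Clasp1 binds the growing ends of microtubules and protects them from shrinking. ENSRNOT00000061515.5 had no rounded count in the control libraries and 0, 4.73 and 55.2 counts in high-salt replicates 1, 2 and 3, or 0, 0.249 and 2.69 CPM. High-salt replicate 3 held 91.5% of this level, and the groups overlapped at 0. The group mean of 0.980 ± 1.49 CPM (SD, n = 3) was at least 5.82-fold above the control floor. Without high-salt replicate 3, the levels of 0 and 0.249 CPM leave no such bound. The fitted log2 fold change was 7.28 in the exact test of edgeR, and 4.43 without high-salt replicate 3.

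Around Clasp1, 5 of the 7 rows of the window had counts, and Clasp1 held 0.530% and 5.89% of them in high-salt replicates 2 and 3. ENSRNOT00000093127.1 carried most, with 7.09, 33.5 and 39.4 CPM in the control libraries and 20.1, 32.4 and 38.9 CPM in the high-salt libraries. The next row after Clasp1, ENSRNOT00000061513.4, was at 0.638, 3.17 and 3.72 CPM against 8.27, 14.4 and 4.02 CPM. This row was higher in every high-salt library than in any control library, with replicates 3 close together. Of all transcripts tested, 5.50% had levels without overlap, and nothing is read from this row. ENSRNOT00000084506.1 was at 0.325, 5.33 and 4.68 CPM against 1.17, 0 and 0 CPM, and here the groups overlapped through replicates 1. Summed, the window was at 8.05, 42.0 and 47.9 CPM in the control libraries and at 31.1, 47.1 and 45.7 CPM in the high-salt libraries. The low value of control replicate 1 set the difference of 0.64 on the log2(CPM + 1) scale. It was -0.14 without that library, 0.98 without control replicate 2, 1.08 without control replicate 3 and 0.047 without both replicate 1 libraries.

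Pafah1b1, also called Lis1, regulates the motor dynein and helps to position the nucleus and the centrosome. ENSRNOT00000092711.1 had 0, 31.1 and 20 counts in control replicates 1, 2 and 3, or 0, 1.23 and 0.881 CPM, and no count in the high-salt libraries. The groups overlapped, because control replicate 1 had no count either. The control mean of 0.704 ± 0.635 CPM (SD, n = 3) was at least 4.51-fold above the floor of the high-salt diet group. This bound is lower without control replicate 2, which leaves 0 and 0.881 CPM.

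Within its set of 3 rows this transcript was a minor one, with 0.498% and 0.377% of the counts in control replicates 2 and 3. The whole set was at 34.3, 247 and 234 CPM in the control libraries and at 33.6, 256 and 252 CPM in the high-salt libraries. Both replicate 1 libraries were far below the other 4, and same-numbered libraries were close to each other. The sum differed by 0.044 on the log2(CPM + 1) scale, and by -0.032, 0.052 and 0.11 within replicates 1, 2 and 3. Without both replicate 1 libraries it was 0.081. Leaving out a single library unbalanced the replicate 1 libraries and moved the value from -0.88, without control replicate 1, to 1.01, without high-salt replicate 1. It was -0.44 and -0.43 without high-salt replicates 2 and 3, and 0.53 and 0.49 without control replicates 2 and 3.

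**Figure D2:**
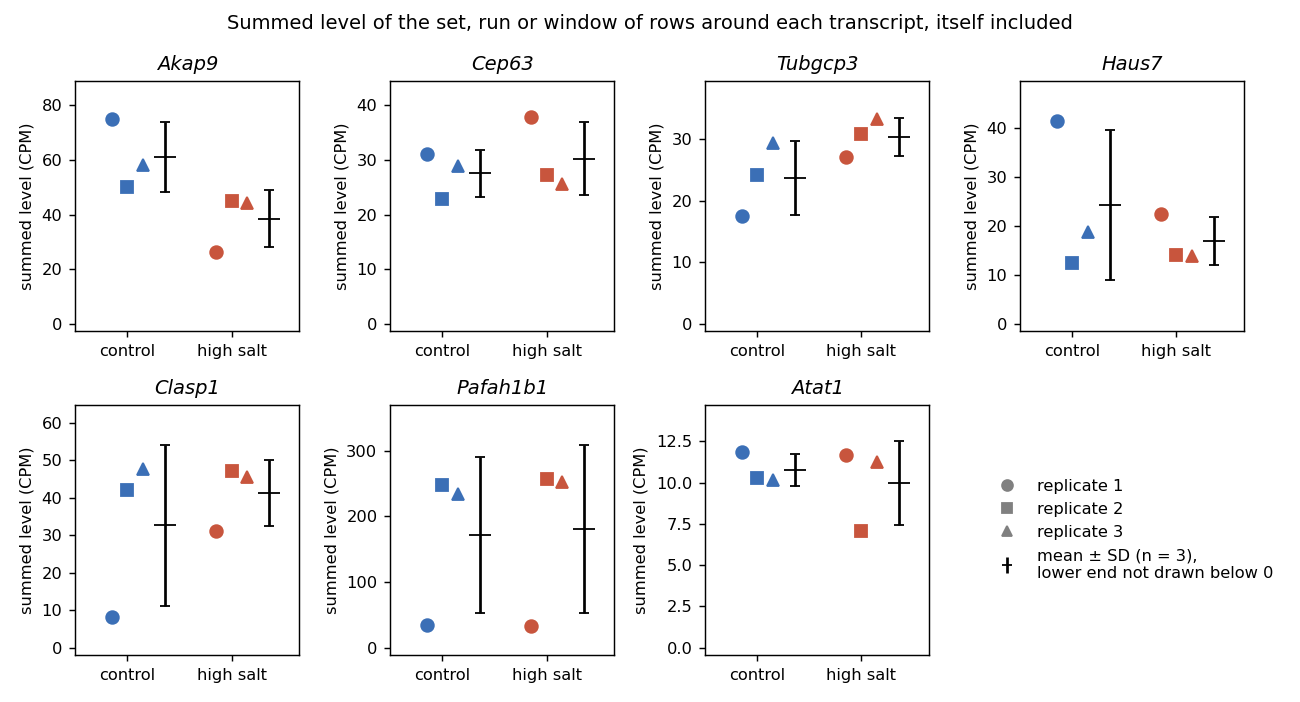
Summed level (CPM) by library of the read-sharing set of each transcript, itself included, or of the rows around it, with control libraries in blue and high-salt libraries in red, where the run of 15 rows for Atat1 and the window of 7 rows for Clasp1 can hold rows that share no reads with them and black bars are the mean ± SD (n = 3), stopped at 0. The groups are apart for Akap9, at 49.9 to 74.9 CPM against 26.5 to 44.8 CPM, and the Pafah1b1 sums are 33.6 to 34.3 CPM in replicates 1 and 234 to 256 CPM in the other 4 libraries.

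Atat1 is the enzyme that acetylates alpha-tubulin inside the microtubule, a mark of long-lived microtubules. ENSRNOT00000089667.1 had 13.9, 117 and 24.9 counts in control replicates 1, 2 and 3 and no count in any high-salt library. Its level was 1.18, 4.65 and 1.10 CPM in the control libraries. All 3 control rats were thus above all 3 high-salt rats, and control replicate 2 alone held 67.1% of the control level. The mean of 2.31 ± 2.03 CPM (SD, n = 3) was at least 14.8-fold above the floor of the high-salt diet group. This bound is lower without control replicate 2, which leaves 1.18 and 1.10 CPM. On rounded counts, the unadjusted p of the exact test was 0.000857. Its adjusted p was 1 there and 0.262 by DESeq2, and it was 0.992 when the quasi-likelihood test of edgeR had the replicate number as a block. Over all settings the adjusted p of Atat1 lay between 0.238, in the exact test after the low-count filter, and 1. DESeq2 and the quasi-likelihood test also ran after this filter, which Atat1 passed through its control counts alone.

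The run of 15 rows that closed around Atat1 had counts in 13 rows. A row without counts, or with whole counts only, need not share reads with Atat1. Atat1 held 9.95%, 45.2% and 10.8% of them in the control libraries, and under high salt 0%, without overlap. Beside Atat1, the levels of 2 other rows of the run did not overlap between the groups, 1 in each direction, and from this count, which stands beside 5.50% of all transcripts tested, nothing is read. ENSRNOT00000090225.1 was lower under high salt, like Atat1, at 0.190, 0.322 and 0.704 CPM in the control libraries and at 0, 0 and 0.159 CPM in the high-salt libraries. Its separation rests on few counts, since control replicate 1 had 2.24 counts, under the floor of its library, high-salt replicate 3 had 3.26 and no library had more than 16.0. ENSRNOT00000080158.1 was higher under high salt. It was at 1.94, 0.00141 and 0 CPM in the control libraries and at 3.57, 2.99 and 2.91 CPM in the high-salt libraries.

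The remaining counts of the run were divided unevenly. ENSRNOT00000080419.1 held 63.4%, 47.7% and 0% of the run in the control libraries, against 59.3%, 57.5% and 49.9% in the high-salt libraries. In control replicate 3, where this row had no rounded count, ENSRNOT00000001065.5 held 41.1% of the run, against at most 0.0755% in any other library. The sum over the run was nearly even, at 11.9, 10.3 and 10.1 CPM in the control libraries and 11.7, 7.06 and 11.2 CPM in the high-salt libraries. It differed by -0.12 on the log2(CPM + 1) scale, and by 0.084 without high-salt replicate 2, the lowest library. With another single library left out it was between -0.24, without high-salt replicate 1, and -0.058, without control replicate 1. Without both replicate 1 libraries it was -0.17. With library totals in place of TMM the sum over the run differed by -0.043. In a window of 7 rows around Atat1 the sum differed by -0.25. The share of Atat1 differed by -5.76 percentage points in that window, against -22 in the run. The 14 rows other than Atat1 together were 0.23 higher in the high-salt diet group with all libraries, and 0.28 higher without both replicate 1 libraries.

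**Figure D3:**
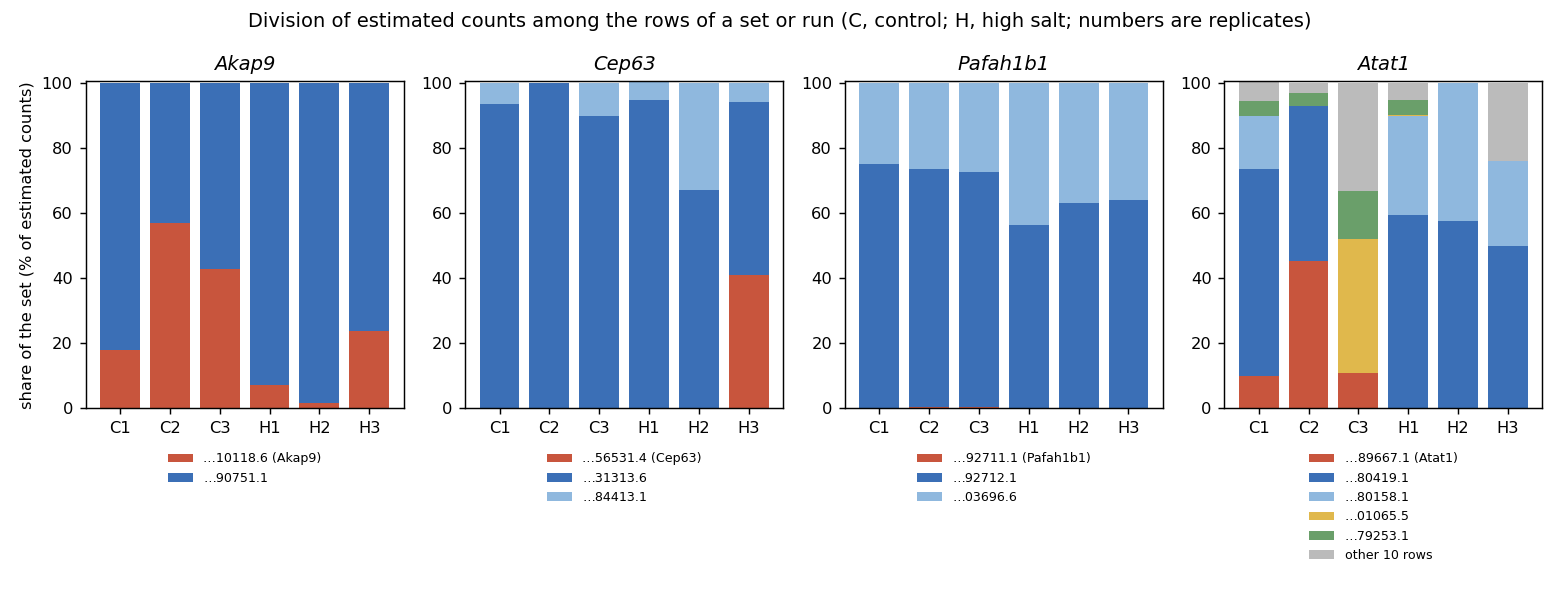
Share (% of estimated counts) of each row in the sets of Akap9, Cep63 and Pafah1b1 and in the run of 15 rows around Atat1, as stacked bars for control (C) and high-salt (H) replicates 1 to 3, with the named transcript in red and identifiers shortened to their last digits. Akap9 ranges from 1.59% to 56.9%, Cep63 appears in high-salt replicate 3 at 40.9%, Pafah1b1 is at most 0.498% and too thin to see, and Atat1 is found in the control libraries alone.

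Set side by side with all libraries, the 7 transcripts differed more than the sums they belong to. With 1 library left out this did not always hold. The Clasp1 sum differed by 0.98 and 1.08 without control replicates 2 and 3, against 0.735 for the transcript with all libraries. Without high-salt replicate 1 the Pafah1b1 sum differed by 1.01, against -0.69 for the transcript with all libraries. The median absolute difference of group means on the log2(CPM + 1) scale was 1.18 for the 7 transcripts and 0.36 for their sums. Over all 24253 transcripts tested, the median absolute difference was 0.24. Of the 297 transcripts called in the exact test, 123 had a set of at least 2 rows, and for these the medians were 1.38 for the transcript and 0.24 for the sum. Both the called transcripts and the 7 were chosen on their own level and not on the sum. That choice favours a larger difference of the transcript than of its sum, and nothing is read from these medians. For Pafah1b1, which was lower under high salt, the sum had the other sign, at 0.044. Without high-salt replicate 2 the sums differed by -0.80 for Akap9, 0.18 for Cep63, 0.36 for Tubgcp3, -0.26 for Haus7, 0.54 for Clasp1, -0.44 for Pafah1b1 and 0.084 for Atat1, with another sign than with all libraries for Pafah1b1 and Atat1. The share moved with the level of its transcript in every setting tried, as it largely must when a group has no counts.

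**Figure D4:**
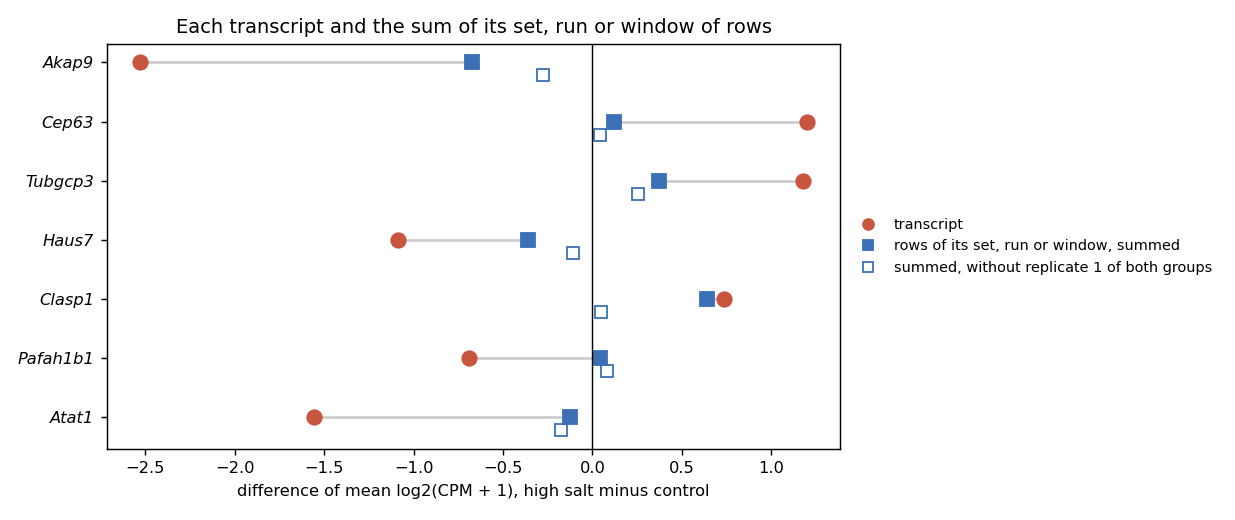
Difference of mean log2(CPM + 1), high salt minus control, for each transcript (red circles), for the sum of its set (filled squares, with a run of 15 rows for Atat1 and a window of 7 rows for Clasp1) and for the sums without both replicate 1 libraries (open squares). The transcripts run from -2.53 for Akap9 to 1.20 for Cep63, and the sums without replicates 1 from -0.27 for Akap9 to 0.26 for Tubgcp3.

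For Akap9, the 2 transcripts with the most similar profile over the 6 libraries were looked up among 21807 others, by the mean absolute difference of centred log2(CPM + 1) values. The closest was ENSRNOT00000087714.1 with a mean absolute difference of 0.38, at 5.46, 11.0 and 16.2 CPM in the control libraries and 0, 0 and 1.94 CPM in the high-salt libraries. The next was ENSRNOT00000055985.5 with 0.38, at 2.87, 8.78 and 7.11 CPM against 0, 0 and 5.41 CPM. Both had their highest high-salt level in replicate 3, like Akap9, which the choice by similar profile favours, and nothing is read from this. The median over all transcripts compared was 1.39. The genes of these 2 transcripts were not identified here.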

How the data were processed

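The BASMC libraries of 3 control and 3 high-salt rats were compared. Groups and replicate numbers were taken from the sample labels. Before deposit, the authors used Trimmomatic for trimming, FastQC for read quality and HISAT2 (2.0.13, per the submitters' notes) for mapping. They deposited the estimated count of each transcript from Kallisto, unscaled. The Kallisto version and transcript set are not given in the sources used here. Of 24481 transcripts with counts, 13660 had a non-whole value. Estimated counts were rounded to whole numbers for the tests and left unrounded for CPM, sums and shares, with a pseudocount of 1 on the log2 scale.

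The exact test of edgeR (4.0.16, R 4.3.3) used TMM, tagwise dispersion and transcripts with at least 1 rounded count. Alternatives were its quasi-likelihood test and DESeq2 (1.42.0), both after the low-count filter of edgeR, and the exact test after that filter, with other size factors, or without 1 library. Another was the exact test on every row with unrounded counts and the common then tagwise dispersion. Scripts were tested on simulated data. There the quasi-likelihood test with the replicate block was checked for signs and false calls but not for a minimum of recovered changes. Python 3.11.15, scipy 1.17.1 and matplotlib 3.10.9 were used for sums, intervals and figures. The members, their gene names and the lists were chosen with earlier results of these data known. The text names the 7 members, the rows of their sets and the 2 transcripts most like Akap9. Further microtubule genes and cell type markers could not be matched, since transcripts and gene names were not paired in the tables used. The longer run for Atat1, the window for Clasp1 and leaving out both replicate 1 libraries were chosen after seeing the data. Quantitative PCR of Akap9, Clasp1 and Pafah1b1 was not used here.

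Deviations from the group means were correlated across 21808 transcripts, and same-numbered libraries gave 0.596, 0.230 and 0.296 for replicates 1, 2 and 3. Control replicate 2 with high-salt replicate 3 gave 0.264, and control replicate 3 with high-salt replicate 2 gave 0.169. Each mean was taken over the 3 libraries of a group. A replicate 1 that stands apart in both groups therefore pushes replicates 2 and 3 the other way in both. The values for replicates 2 and 3 thus cannot decide whether these libraries are paired. The labels state no pairing, and the replicate number was used as a block in an alternative fit only. Depth and floors are given with the results.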

Additional observations from a re-analysis of the deposited data

How the results depend on the processing

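On rounded counts, the exact test called 297 transcripts at an unadjusted p under 0.05 and 2-fold. After the low-count filter, which left 17915 of 24253 transcripts, it called 133, the quasi-likelihood test 118 and DESeq2 188. With the replicate block, the quasi-likelihood test on the same 17915 called 165. Leaving out 1 library gave 223 (without control replicate 2) to 522 (without high-salt replicate 1), and leaving out both replicate 1 libraries gave 392. At an adjusted p under 0.05 the exact test of edgeR called 1 transcript, DESeq2 6 and the exact test after the filter 2. The quasi-likelihood test of edgeR called 0, with 141 at an unadjusted p under 0.05, and with the replicate block also 0, with 327. The exact test on all rows, with unrounded counts and the common then tagwise dispersion, called 0, with 368 at an unadjusted p under 0.05. Leaving out 1 library gave 3 (without control replicate 3) to 12 (without high-salt replicate 1), and leaving out both replicate 1 libraries gave 31. The cause of these shifts was not tested. The replicate block changed no call of the 2 of the 7 transcripts that could be fitted with it. The signs of the 7 fitted log2 fold changes and share differences were the same in all settings that gave a value, and could hardly change where 1 group had no counts. The summed level of Akap9 kept its sign in 11 alternatives, from -0.80 to -0.10. The sums of the other 6 changed sign in at least 1 alternative. With 3 rats a group, levels of a few CPM rest on few counts, the division of reads within a set has no error estimate in the files, and the window of Clasp1 may miss rows that share its reads.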

Other observations

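In the Pafah1b1 set, whose sum was nearly the same in both groups, the division between the 2 abundant rows differed. ENSRNOT00000003696.6 held 24.9%, 26.5% and 27.5% of the set in the control libraries, and under high salt it held 43.8%, 36.9% and 36.1%. ENSRNOT00000092712.1 held 75.1%, 73.0% and 72.1% against 56.2%, 63.1% and 63.9%. Neither share overlapped between the groups, in replicate 1 libraries with 405 and 613 counts of the set as in the other 4 libraries with 4868 to 6235 counts. Among the 6048 rows with a read-sharing set of up to 10 rows and at least 10 counts of the set in each library, 364 (6.02%) had shares without overlap. These 2 rows were picked after their values were seen, their shares are complementary, and the difference was not tested.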
